A study of Heliconius melpomene cythera and Heliconius melpomene rosina with 32 samples.

Results

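The genes described here are 200 annotated genes of H. melpomene pupal wings whose read counts were far higher at 70% than at 50% of pupal development. They were chosen by that difference. Counts were scaled to CPM, which sets every library to the same total, and of the 30720 rows of the count table, 18081 carried an annotated gene ID and 5321 of these averaged from 10 to under 1000 CPM over the 32 libraries. In 485 of the 5321 (9.11%) every library at 70% lay above every library at 50%, and 442 of these also had a mean log2 ratio between wing regions at 70% within 0.5 of zero. The 200 with the highest log2((mean CPM at 70% + 1)/(mean CPM at 50% + 1)) are the members, and 242 eligible genes lay below the cut. The difference between stages is therefore a description of how the genes were selected and gets no test for them, and neither does the ratio between wing regions at 70%.

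RNA was sequenced from the wings of 16 pupae of captive stocks, in 4 groups of 4 individuals: at 70% development the iridescent Ecuadorian subspecies cythera (individuals 9 to 12; 2 males, 2 females) and the matt black Panamanian subspecies rosina (13 to 16; 4 males), and at 50% cythera (1 to 4) and rosina (5 to 8), each with 2 males and 2 females. The stages are 7 and 5 days after pupation. Wings were divided into the forewing with the posterior hindwing (FPH) and the anterior hindwing (AH), with 1 library of each per individual. No agent or genetic change was applied, and because rosina at 70% are all males, sex and subspecies cannot be fully told apart there.

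Butterfly wing scales are flattened outgrowths of single epidermal cells. In the pupa each scale cell extends, its actin bundles run along the scale, and chitinous cuticle is laid down over it as ridges and cross-ribs. Iridescence in Heliconius comes from layered lamellae in those ridges, and pigments are deposited late in pupal life, after much of the scale's form is set. Which of these processes any member belongs to was not assessed: 0 of the 200 IDs matched the RefSeq gene table of assembly ASM5695672v1, so members are given by the IDs of the count table, with no name or role. For the same reason the tissue was not checked against wing markers.

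Libraries held 20151439 to 39998474 counts at 70% and 22582518 to 45570497 at 50%. The share of a library held by its 10 most abundant genes was 31.7 to 41.8% at 70% and 16.2 to 28.3% at 50%, and the totals behind CPM include them. Individual 13, labelled rosina at 70%, lay at -0.81 and -0.78 on the second dimension of a multidimensional scaling plot of all libraries, inside the range of the 8 cythera libraries at 70% (-1.14 to -0.66) and away from the 6 libraries of rosina individuals 14 to 16 (1.25 to 1.66). The study left out 1 rosina individual as incorrectly labelled, and the text used here does not give its number. Individual 13 was kept under its label. Tests and means of rosina at 70% include it unless stated otherwise. The edgeR calls between subspecies at 70% and the values of HMEL008925g1 there are also given without it. The DESeq2 calls, the shares by unadjusted p, the interaction and the values of other genes are given only with it. Individual 4, a cythera male at 50%, stood apart from the others at that stage, as described below for the members. The samples are whole wing pieces, in which fewer cells of a type and less RNA per cell cannot be told apart.

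The members took 3.85 to 4.61% of all counts at 70% (median 4.26%, 16 libraries) and 0.244 to 0.367% at 50% (median 0.280%, 16 libraries). Among the 4 groups of libraries at 70%, the means differed by less than the SD within any of them. It was 4.19 ± 0.246% in FPH and 4.18 ± 0.219% in AH of cythera, and 4.30 ± 0.295% in FPH and 4.36 ± 0.216% in AH of rosina (SD, n = 4 each). At 50% it was 0.273 ± 0.0141% and 0.281 ± 0.0286% in FPH and AH of cythera, and 0.277 ± 0.0293% and 0.309 ± 0.0467% in FPH and AH of rosina (SD, n = 4 each).

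Single members had mean levels of 19.5 to 1831 CPM at 70% (median 99.8) and 0.00447 to 233 CPM at 50% (median 5.07). The log2 ratio of the stages had a median of 3.98, quartiles of 2.88 and 4.96, and a highest value of 10.63. The eligible genes below the cut had ratios of 0.47 to 2.17 (median 1.32). The cut fell within a continuous run of values: the last members inside were HMEL035410g1 (2.19), HMEL008334g1 (2.18) and HMEL012390g1 (2.17), and the first genes outside were HMEL016829g1 (2.17), HMEL010735g1 (2.16) and HMEL007125g1 (2.15). Over all 11879 genes tested for stage in FPH libraries, edgeR called 23.5% higher at 70%; the members were selected on this contrast, so no result of it is given for them.

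The words "switched on" describe only part of the list. At 50%, 54 members averaged under 1 CPM, 81 averaged 1 to under 10 CPM and 65 averaged 10 CPM or more, of which 16 averaged 50 or more. Counts of 0 in at least 1 library at 50% were seen in 57 members, and in at least 8 libraries in 16. No member was at 0 in all 16 libraries, and 22 were under 1 CPM in each of them. HMEL031152g1 came closest to absence, with 3 counts in 1 library at 50% and 0 in the other 15, against 29.7 to 63.9 CPM (median 46.1) at 70%; it was singled out after its values were seen. The upper limit that goes with a count of 0 (3 counts) was 0.0658 to 0.133 CPM in the libraries at 50%; it covers counting error only. The lowest count of any member in any library at 70% was 21.

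**Figure D1:**
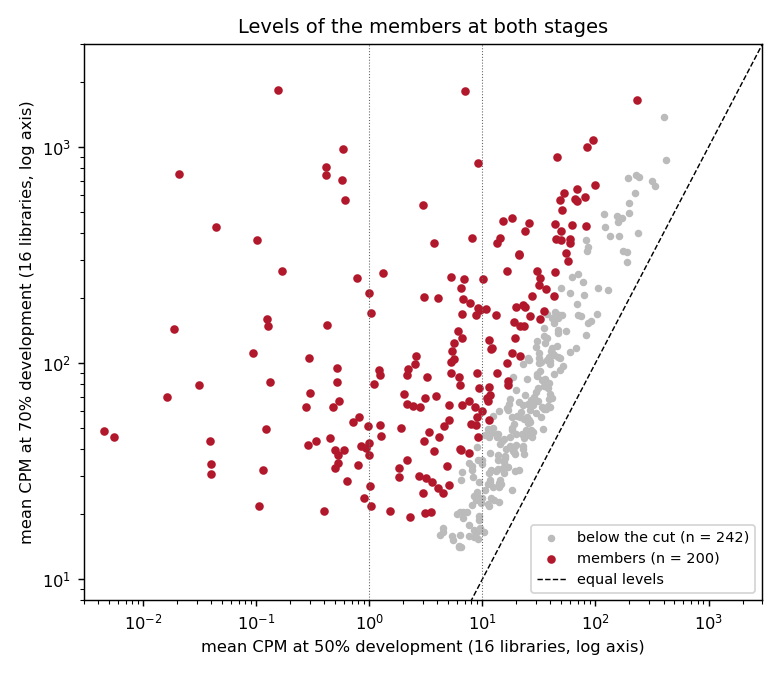
Mean CPM at 70% (vertical) against mean CPM at 50% (horizontal), each over 16 libraries and on log axes, for the 200 members (red) and the 242 eligible genes below the cut (grey); dotted lines mark 1 and 10 CPM at 50%, and the dashed line equal levels. The members spread from near 0 to 233 CPM at 50%, with 54 of them left of 1 CPM and 65 at or right of 10 CPM.

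The 10 members with the highest ratios were near 0 at 50% and abundant at 70%. HMEL031852g1 had the highest ratio and also the highest mean level at 70%, with 67.6 to 3382 CPM (median 2232) at 70% and 0 to 1.27 CPM (median 0.0517) at 50%. Its levels at 70% fell apart by individual. Cythera individuals 9, 10, 11 and 12 had 110.4, 1656, 2725 and 2049.8 CPM, and rosina individuals 13, 14, 15 and 16 had 3289.9, 82.6, 2232 and 2505 CPM. Individuals 9 and 14, one of each subspecies, were thus the low ones: their 4 libraries had 67.6 to 131 CPM, and the lowest library of the other 6 individuals had 1534 CPM.

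HMEL010777g1 followed, at 279 to 1684 CPM (median 613) at 70% against 0 to 0.182 CPM (median 0) at 50%. HMEL010935 was at 636 to 1751 CPM (median 910.4) at 70% and 0 to 1.21 CPM (median 0.658) at 50%, and HMEL022553 at 475 to 995 CPM (median 828) at 70% and 0 to 2.61 CPM (median 0.165) at 50%. These 3 genes differ in evenness. HMEL022553 varied little between rosina individuals at 70%, at 799 ± 47.8 CPM (SD, n = 4), whereas HMEL010777g1 was at 824 ± 596 CPM there (SD, n = 4). In cythera at 70%, HMEL022553 was at 819 ± 174 CPM and HMEL010777g1 at 670 ± 438 CPM (SD, n = 4 each). The levels of HMEL005010g1 at 70% were 285 to 1695 CPM (median 732), against 0 to 2.23 CPM (median 0.182) at 50%. The remaining 5 were HMEL016109g1, HMEL032063g1, HMEL034045g1, HMEL010191g1 and HMEL007719g1, with ratios of 8.81, 8.68, 8.46, 8.41 and 7.84.

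HMEL005010g1 and HMEL005009g1 lie in assembled loci with consecutive numbers (MSTRG.16529 for HMEL005009g1 and MSTRG.16530 for HMEL005010g1). Both were abundant at 70%, but HMEL005009g1 was among the most even members there and was already present at 50%, at 12.6 to 81.6 CPM (median 45.3), against 709 to 1183 CPM (median 903) at 70%. A second such pair, HMEL010935 and HMEL022586g1, averaged 983 and 842 CPM at 70%; HMEL022586g1 was named after the numbers were seen. Positions in the genome were not used here.

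Other members were strongly expressed at both stages. HMEL003074g1 had the highest level at 50%, with 1064 to 2226 CPM (median 1683) at 70% and 31.8 to 394 CPM (median 223) at 50%. HMEL010482g1 ran from 546 to 1728 CPM (median 1026) at 70% and from 32.3 to 250.5 CPM (median 86.8) at 50%. The values of HMEL010986g1 were 719.7 to 1436 CPM (median 959) at 70% and 20.6 to 135 CPM (median 87.8) at 50%. These 3 were in both the 5 highest at 70% and the 5 highest at 50%, and their log2 ratios (2.83, 3.47 and 3.55) lay below the members' median. HMEL020809g1, the second most abundant at 70% (1221 to 3012 CPM, median 1669), was low at 50% (0.228 to 14.8 CPM, median 6.92). The other 2 of the highest at 50% were HMEL036946g1, at 670.1 CPM on average at 70% and 98.5 CPM at 50%, and HMEL016503g1, at 433 CPM at 70% and 82.3 CPM at 50%.

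The stage ratio was much the same in both subspecies and both wing regions over the list as a whole. Its median was 3.88 in cythera and 3.89 in rosina, and 4.02 in FPH and 3.92 in AH. All 200 members had a log2 ratio above 1 in each of these 4 subsets. The choice of members asked every library of the later stage to exceed every library of the earlier one, in both subspecies and regions. It then took the highest ratios, so ratios above 1 in each subset follow largely from the choice. Between subspecies the ratio of single members varied: cythera minus rosina had a median of 0.05 and ranged from -2.12 to 2.20, with 120 members within 0.5 of zero, 18 above 1 and 12 below -1. Between FPH and AH, 175 members were within 0.5. The choice of members had limited the mean ratio of FPH over AH at the later stage, and set no such limit between subspecies. Both regions also came from the same individuals, so the counts for regions and subspecies cannot be compared. These ratios over all libraries are descriptions, and the difference between subspecies is tested further on in the FPH libraries alone.

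The members were uneven between individuals at 70%. The coefficient of variation (CV) over the 8 individuals, each taken as the mean of its libraries, had a median of 0.331 in the members, 0.176 in the eligible genes below the cut and 0.168 in the 5121 other annotated genes of the same CPM range, a difference that was not tested. The choice asked every library at 70% to lie above every library at 50%. For genes with small stage ratios, such as those below the cut, this also limited the CV at 70%. The choice also used the mean CPM at 70%, which a few very high individuals can raise. It could thus favour uneven genes, so the higher CV of the members is not a separate result about them. The range over the 8 individuals had a median of 1.44 log2 units over the members. The most even members were HMEL016503g1, HMEL004272g1 and HMEL005009g1. HMEL004272g1 was at 415 ± 33.5 CPM in cythera and 405 ± 50.0 CPM in rosina at 70%, and at 48.2 ± 4.44 CPM in cythera and 50.7 ± 6.02 CPM in rosina at 50% (SD, n = 4 each).

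The most uneven member was HMEL015861g1, which was carried by 1 individual. Cythera female 10 had 271 CPM, in 6225 and 6358 counts of its FPH and AH libraries, and the other 7 individuals at 70% had 2.14 to 28.5 CPM. HMEL015861g1 averaged 45.5 CPM over the libraries at 70%, the mean that the choice of members used, with a median of 14.1 CPM. At 50% it had 4 counts in 1 library and 0 in the other 15. HMEL016109g1 and HMEL005970g1 were next, and in both the same individuals were high. Cythera individual 11 and rosina individual 15 had 1516 and 2722 CPM of HMEL016109g1, and the other 6 had 54.0 to 446 CPM. Of HMEL005970g1 they had 67.6 and 119.8 CPM, and the other 6 had 4.92 to 28.2 CPM.

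**Figure D2:**
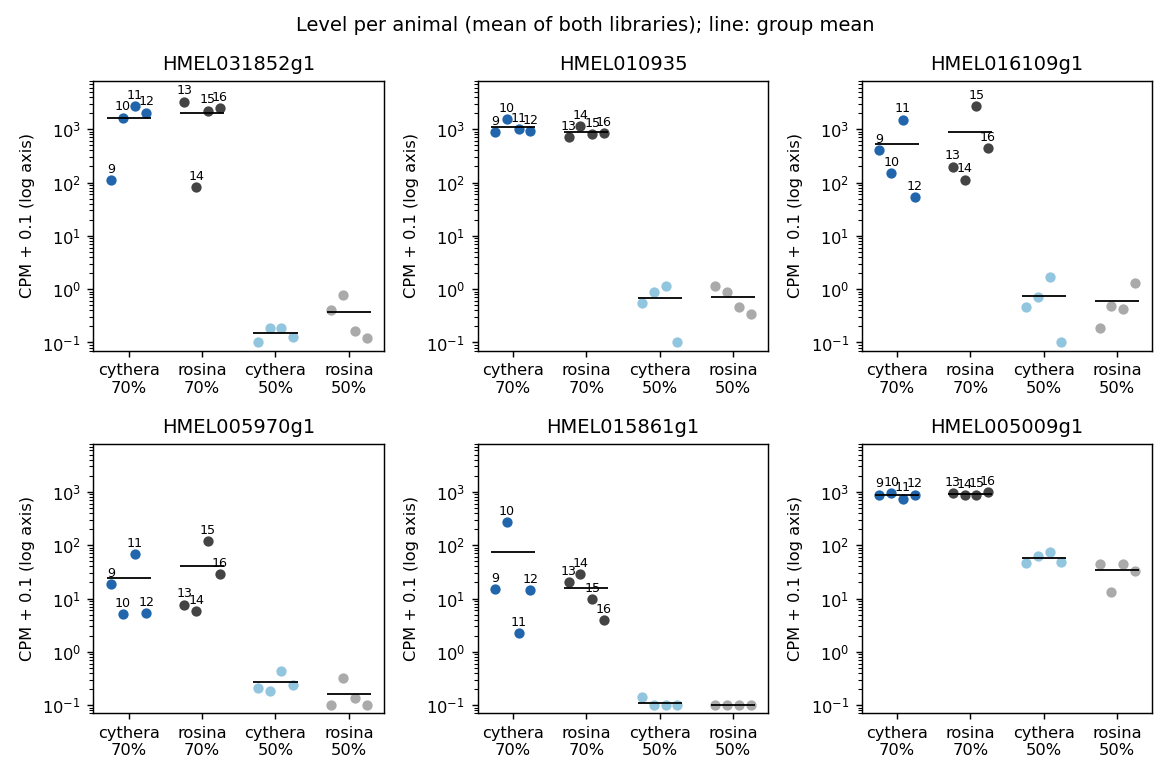
CPM + 0.1 (log axis) of 6 members in each individual, as the mean of its FPH and AH libraries, for cythera and rosina at 70% (with the individual's number) and cythera and rosina at 50%; lines are group means of 4 individuals. HMEL031852g1 is low in individuals 9 and 14, HMEL016109g1 and HMEL005970g1 are high in 11 and 15, HMEL015861g1 is high in 10 alone, and HMEL005009g1 is even.

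Individuals 11 and 15 shared extremes well beyond these genes. This pair, one of each subspecies and both males, was noticed after the values were seen. Both had the highest levels of all 8 individuals in 24 members (12%) and both the lowest in 32 members (16%), which makes 56 members (28%). In the 5121 other annotated genes of the range the same pair was at an extreme in 13.6%, and the difference between these shares was not tested. None of the other 27 pairs of individuals at 70% reached more than 30 members, the number of individuals 12 and 14. In the 5121 other genes, individuals 15 and 16 were together at an extreme in 13.8%, slightly more than 11 and 15.

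**Figure D3:**
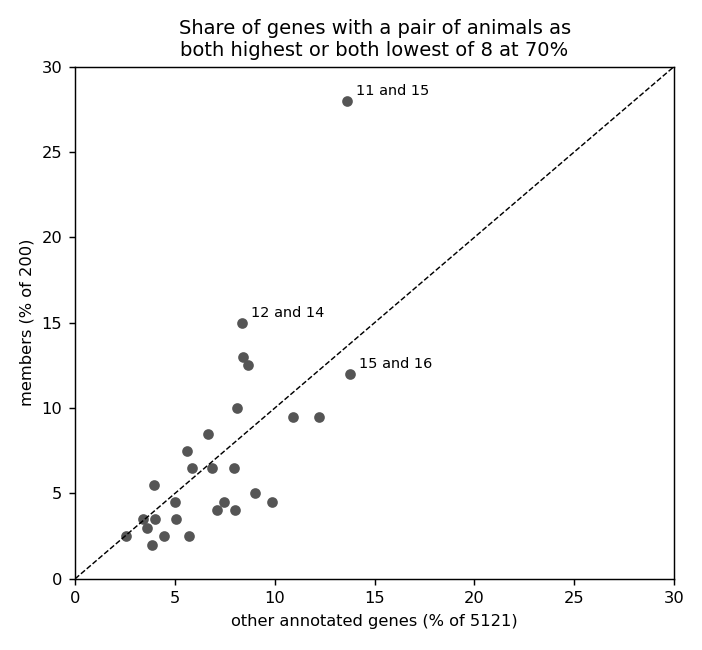
Each point is 1 of the 28 pairs of individuals at 70%, placed by the percent of 5121 other annotated genes (horizontal) and the percent of 200 members (vertical) in which both had the highest or both the lowest levels of 8; the dashed line marks equal shares. Individuals 11 and 15 stand at 28% of members and 13.6% of other genes.

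Some members were nearly silent in this pair. In HMEL010685g1, individuals 11 and 15 had 0.932 and 0.945 CPM, and the other 6 individuals at 70% had 17.2 to 278 CPM. In HMEL009747g1 they had 1.18 and 1.79 CPM, and the other 6 had 18.3 to 118.7 CPM. HMEL009171g1 went the other way, with 476 and 590.3 CPM in individuals 11 and 15 and 57.0 to 210.0 CPM in the others. These 3 genes were chosen after their values were seen. The leading component of log2 CPM of the members at 70% took 46.0% of their variance, against 13.0% for the second. On it the libraries of individual 15 lay at 0.417 and 0.432 and those of 11 at 0.344 and 0.403, individual 16 lay at 0.0912 and 0.0748, and the other 10 libraries lay between -0.248 and -0.0875.

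At 50%, the individual that stood apart was 4. It lay at 0.556 and 0.597 on the leading component of the members (34.4% of variance), and the other 14 libraries lay between -0.230 and 0.226. It had the lowest level of all 8 individuals in 69 members (34.5%), but also in 35.5% of the other annotated genes, which is about the same share. HMEL003074g1 shows it: individual 4 had 31.9 CPM, and the other 7 individuals at 50% had 109 to 372 CPM.

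Whether the members differed between the iridescent and the matt subspecies was tested within each stage, a contrast that the choice of members did not use. In FPH at 70%, edgeR's quasi-likelihood F-test called 0 of 200 members at a Benjamini-Hochberg FDR under 0.05, as it called 0% of the 12138 genes tested. At an unadjusted p under 0.05 there were 19 members (9.5%), against 7.28% of all genes, and DESeq2 called 7 members (3.52%), 4 of them higher in cythera, against 1.26% of all genes given an adjusted p. In AH at 70%, edgeR called 0 of 200 members and 0% of 12296 genes; 21 members (10.5%) had an unadjusted p under 0.05, against 7.99% of all genes, and DESeq2 called 9 members (4.52%), 5 higher in cythera, against 1.48% of all genes. The median log2 fold change of cythera over rosina was 0.01 in FPH and 0.10 in AH over the members, and -0.00 in FPH and -0.03 in AH over all genes. Without individual 13, edgeR called 1 of 200 members (0.5%), HMEL008925g1, in each region, against 0.24% of all 12907 genes tested in FPH and 0.382% of 13087 in AH.

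At 50%, 169 members passed the filter on low counts in FPH and 176 in AH; the rest had too few counts at that stage. In FPH, edgeR called 0 of 169 members, against 1.64% of all 12779 genes. There 21 members (12.4%) had an unadjusted p under 0.05, against 12.8% of all genes, and DESeq2 called 6 (3.68%), of which 3 were higher in cythera, against 6.2% of all genes. In AH, edgeR called 1 of 176 members, against 1.4% of all 13250 genes. Here 29 members (16.5%) had an unadjusted p under 0.05, against 13.9% of all genes, and DESeq2 called 11 (6.51%), of which 4 were higher in cythera, against 7.18% of all genes. The median log2 fold change was 0.07 in FPH and -0.13 in AH over the members tested, and 0.01 in FPH and 0.02 in AH over all genes. The share of members called was not above the share of all genes in either region, by either tool.

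The member called in AH at 50% was HMEL009822g1, lower in cythera. It had 11.1, 9.29, 7.44 and 6.58 CPM in cythera individuals 1 to 4 and 16.9, 23.9, 19.9 and 26.4 CPM in rosina individuals 5 to 8. The groups did not overlap (log2 fold change -1.24, SE 0.22, edgeR FDR 0.0378). With any 1 of the 8 individuals left out, its edgeR FDR was 0.0536 to 0.107, so the call needs all 8. At 70% its subspecies overlapped: AH levels were 513, 257, 273 and 402 CPM in cythera and 579, 547, 198 and 755 CPM in rosina.

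HMEL008925g1 had the smallest p of the members in AH at 70% and in FPH at 50%, and was higher in cythera in all 4 comparisons. In AH at 70%, it had 34.6, 48.3, 29.97 and 38.1 CPM in cythera individuals 9 to 12 and 16.9, 6.13, 10.6 and 9.40 CPM in rosina individuals 13 to 16. In FPH at 70%, it had 25.6, 30.7, 27.1 and 21.0 CPM in cythera and 15.0, 4.35, 7.43 and 5.99 CPM in rosina. Cythera and rosina did not overlap in either region, and individual 13 was the highest rosina individual in both. At 50% the levels were far lower but divided in the same way: 2.63, 3.51, 2.87 and 1.97 CPM in cythera and 0.744, 0.634, 0.119 and 0.221 CPM in rosina in FPH. In AH at 50% they were 2.53, 3.93, 2.11 and 1.71 CPM in cythera and 0.488, 0.259, 0.119 and 0.615 CPM in rosina, the rosina values resting on 4 to 28 counts a library.

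The log2 fold changes of HMEL008925g1 were 1.64 (SE 0.36, edgeR FDR 0.340) in FPH and 1.92 (SE 0.30, edgeR FDR 0.161) in AH at 70%. At 50% they were 2.70 (SE 0.62, edgeR FDR 0.0918) in FPH and 2.86 (SE 0.55, edgeR FDR 0.0503) in AH. None passed 0.05 over all genes. Without individual 13 the values at 70% were 2.08 in FPH (edgeR FDR 0.0398) and 2.21 in AH (edgeR FDR 0.0316). With males alone, 2 cythera against 4 rosina, the AH value was 1.69 (edgeR FDR 0.679), and the FPH value is not given here. That comparison kept individual 13 and left out the 2 cythera females. What each of these did to the value was not tested. The libraries of FPH and AH come from the same individuals and are not independent of each other.

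HMEL003469g3 had the smallest p in FPH at 70%. Its levels there were 42.6, 63.1, 33.7 and 53.5 CPM in cythera and 21.3, 22.7, 23.9 and 16.6 CPM in rosina, which did not overlap, yet its change did not pass over all genes (log2 fold change 1.16, SE 0.18, edgeR FDR 0.106). At 50% it was near 1 CPM in both, at 0.665 ± 0.277 CPM in cythera and 1.03 ± 0.4997 CPM in rosina (SD, n = 4 each).

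**Figure D4:**
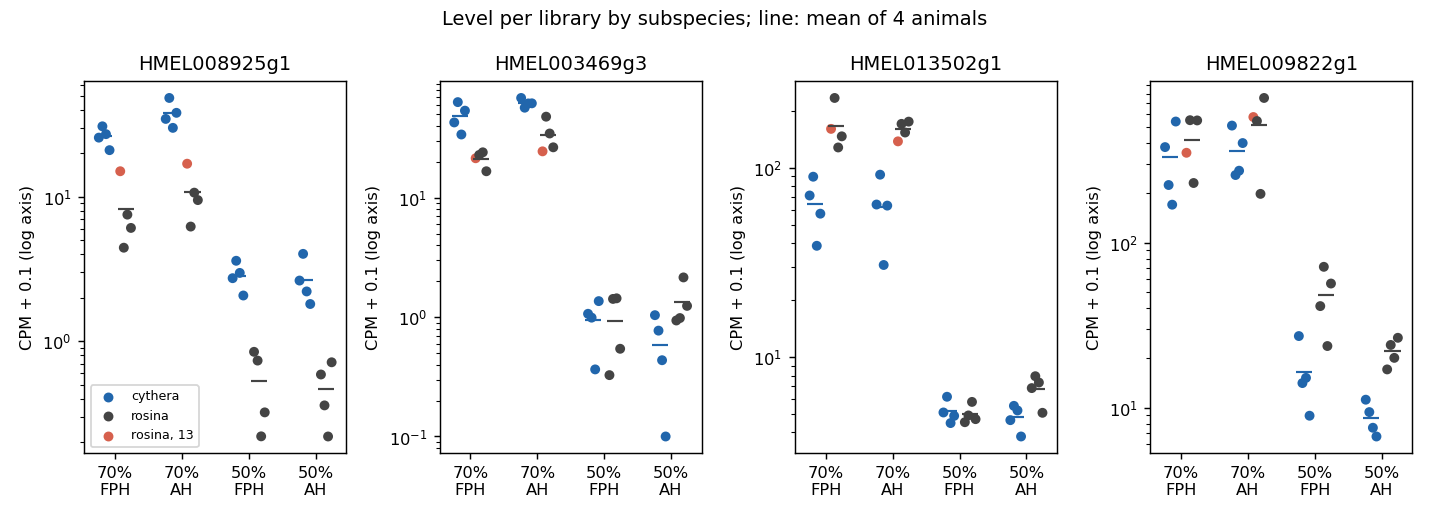
CPM + 0.1 (log axis) of 4 members in each library, by stage and wing region, with cythera (blue) left of rosina (grey; individual 13 in red); lines are means of 4 individuals. HMEL008925g1 is higher in cythera in all 4 comparisons, and HMEL009822g1 separates the subspecies in AH at 50% but not at 70%.

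Whether the stage difference itself depended on subspecies was tested as an interaction in the 16 FPH libraries. edgeR called 0 of 200 members and 0% of all 14722 genes. At an unadjusted p under 0.05 there were 23 members (11.5%), against 6.70% of all genes, and DESeq2 called 3 (1.51%), against 0.772% of all genes. The choice of members asked every library at 70% to exceed every library at 50%, in both subspecies, and so also limited how far the stage difference could vary between them. The smallest p was that of HMEL013502g1 (interaction -1.55 on the log2 scale, SE 0.30, edgeR FDR 0.201). It had 71.3, 89.7, 38.6 and 57.2 CPM in cythera and 160.5, 233.8, 128 and 147 CPM in rosina in FPH at 70%, without overlap. At 50% in FPH it had 5.00, 6.08, 4.39 and 4.80 CPM in cythera and 4.43, 4.82, 5.70 and 4.61 CPM in rosina, which overlapped.

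Whether the members differed between wing regions before their levels were high was tested at 50%, within individuals. edgeR called 4 of 171 members (2.34%), against 0.705% of all 12764 genes, and 45 members (26.3%) had an unadjusted p under 0.05, against 14.2% of all genes. DESeq2 called 16 members (9.52%), against 3.51% of all genes. Of the 4 called by edgeR, 3 were higher in FPH and 1 was lower. The median log2 ratio of FPH over AH was -0.05 over the members tested and -0.02 over all genes. Leaving out 1 individual gave 2 to 6 calls, with 2 when individual 2, 3 or 5 was left out (1.16 to 1.18% of members, against 0.486 to 0.516% of all genes) and 6 without individual 4 (3.45%, against 0.996% of all genes). A fit without the individual as a block called 0 members and 0.0392% of all genes.

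HMEL008879g2 was higher in FPH in 8 of 8 individuals at 50%. In cythera individuals 1 to 4 it had 9.30, 8.70, 7.90 and 8.44 CPM in FPH and 4.95, 3.07, 4.90 and 5.63 CPM in AH, and in rosina individuals 5 to 8 it had 6.70, 13.0, 5.92 and 5.54 CPM in FPH and 4.57, 6.25, 3.45 and 2.15 CPM in AH. The log2 ratio was 1.00 (SE 0.13, edgeR FDR 0.00495), and the FDR was 0.00858 to 0.0185 with any individual left out. HMEL009822g1, the member that differed between subspecies in AH, was also higher in FPH in 8 of 8. Its FPH levels were 27.1, 14.0, 15.0 and 8.83 CPM in cythera and 41.2, 71.3, 23.5 and 56.5 CPM in rosina, beside the AH levels given above (log2 ratio 1.02, SE 0.15, edgeR FDR 0.0100; 0.00607 to 0.0412 with any individual left out).

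The other 2 calls were less stable. HMEL010874 was higher in FPH in 7 of 8 individuals, with 9.41, 14.1, 5.03 and 5.51 CPM in FPH and 1.55, 1.69, 0.973 and 1.79 CPM in AH of cythera, and 9.90, 6.83, 12.0 and 10.4 CPM in FPH and 4.04, 9.57, 4.66 and 2.30 CPM in AH of rosina. Rosina individual 6 was the exception. Its log2 ratio was 1.80 (SE 0.33, edgeR FDR 0.0381), and the FDR exceeded 0.05 with any individual but 6 left out, reaching 0.102. The locus that joins HMEL030255g1 and HMEL030256g1, whose counts cannot be split between the 2 IDs, was lower in FPH in 8 of 8 individuals. It had 4.39, 15.4, 5.37 and 34.7 CPM in FPH and 6.38, 45.6, 9.36 and 61.5 CPM in AH of cythera, and 11.0, 6.47, 9.31 and 8.86 CPM in FPH and 24.9, 7.93, 27.5 and 12.9 CPM in AH of rosina. The level varied several-fold between individuals but the direction did not (log2 ratio -0.85, SE 0.14, edgeR FDR 0.0196; up to 0.0675 with 1 individual left out).

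At 70% these regional differences were smaller or of the other sign, where the choice of members had limited the mean ratio to within 0.5. The log2((FPH + 1)/(AH + 1)) of HMEL008879g2 was 0.24 ± 0.21 at 70% and 0.78 ± 0.28 at 50%, and that of HMEL010874 was 0.05 ± 0.25 at 70% and 1.38 ± 0.87 at 50% (SD, n = 8 each). For HMEL009822g1 it was -0.23 ± 0.42 at 70%, above zero in 3 of 8, and 0.89 ± 0.46 at 50%. For the joined locus it was 0.49 ± 0.63 at 70%, above zero in 6 of 8, and -0.85 ± 0.47 at 50%. Whether the ratio changed with stage was not tested.

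**Figure D5:**
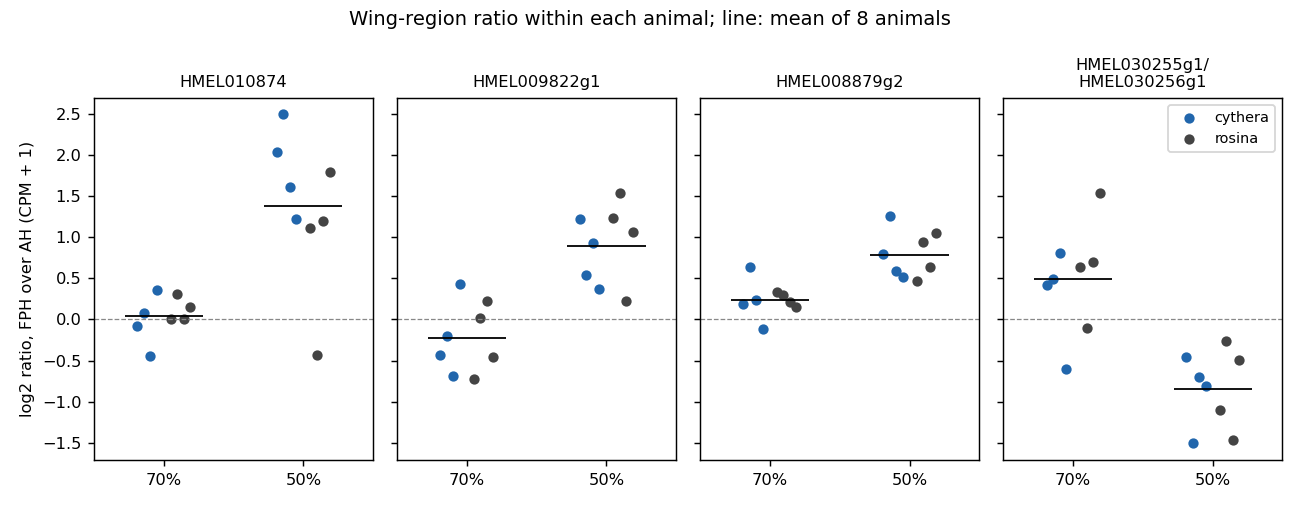
Log2 ratio of FPH over AH (CPM + 1) within each individual for the 4 members called at 50%, at 70% (left) and at 50% (right) in each panel, with cythera in blue, rosina in grey and lines at the mean of 8 individuals. At 50% the means are 1.38, 0.89, 0.78 and -0.85, and at 70% they lie within 0.5 of zero.

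Males and females were compared in FPH at 50%, with subspecies as a term, since both sexes of both subspecies were present there. edgeR called 0 of 169 members, against 0.102% of all 12779 genes. At an unadjusted p under 0.05 there were 14 members (8.28%), against 7.57% of all genes, and DESeq2 called 2 (1.18%), against 2.16% of all genes. In AH libraries edgeR called 1 of 176 members, HMEL007020g1, against 0.242% of all 13250 genes. The smallest p was that of HMEL004276g1 (log2 of males over females 3.50, SE 0.73, edgeR FDR 0.318). In FPH it had 0.791, 4.60, 8.87 and 10.9 CPM in males 2, 4, 5 and 7 and 0.154, 0.643, 0.431 and 0.620 CPM in females 1, 3, 6 and 8. All males were above all females, and male 2 was close to the females. At 70% it had 50.8 and 74.3 CPM in FPH of cythera males 9 and 11 and 58.7 and 77.3 CPM in cythera females 10 and 12, which overlapped.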

How the data were processed

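The authors deposited raw counts of reads per gene, as whole numbers with no scaling. RNA was prepared with a stranded mRNA kit, and their processing notes name Trimmomatic 0.38, HISAT2 2.1.0, SAMtools 1.9, StringTie 1.3.5 and edgeR. The genome build, annotation and counting program are not given in the sources used here. Of the members, 165 rows carry 1 annotated ID and 35 carry 2 or more.

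CPM used the column totals. Counts were tested in R 4.3.3 with edgeR 4.0.16 (filterByExpr with a minimum count of 10, TMM, quasi-likelihood F-test in its legacy form), with Benjamini-Hochberg FDR over all genes tested and calls under 0.05. DESeq2 1.42.0 was an alternative, and limma 3.58.1 gave the multidimensional scaling over the 500 most different genes of each pair of libraries. SE was derived from F. The leading components used log2(CPM + 0.5). Python 3.11.15 with matplotlib 3.10.9 served for tables and plots. The tests of subspecies in FPH, the interaction, wing region and sex were also run on simulated counts. Those counts held no shared level for the libraries of an individual. The tests of subspecies in AH were not run on them, and the outcome is not given here. All 16 individuals were kept under their labels. The study left out 1 rosina individual that clustering of expression levels and nucleotide variants showed to be incorrectly labelled. The text used here does not number it.

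Wing regions were paired by the individual in the labels; within an individual, both libraries' deviations from the group means correlated at 0.636 to 0.846 (median 0.712). Libraries of one group differed by a chi-square per degree of freedom of at least 73.1, so none was counted as a repeat. Whether stocks were bred in separate families is not stated, and p-values measure the spread between these individuals. TMM moved the median log2 stage ratio of all genes tested by 0.05 relative to column totals.

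The members and the lists were chosen with earlier results of these data known. Genes named are the 10 members with the highest stage ratio, the 5 with the highest mean at 70% and the 5 at 50%, for each test the called members with the smallest p (up to 3 in each direction, or 1 where none was called), the 3 with the largest and the 3 with the smallest CV at 70%, and 3 on either side of the cut. Gene groups by annotated name were planned but not formed, since no ID matched. Alternatives were RLE size factors, no low-count filter, DESeq2, a sex term, AH libraries for sex, no block, each individual left out, and other scalings of the choice of members; males alone at 70% was chosen after seeing the data.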

Additional observations from a re-analysis of the deposited data

Results flagged for a closer look

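In 9 of 102 groups of 4 individuals, 1 individual lay far from the other 3. About 5.1 such groups would be given by chance if the groups were independent and not chosen by their spread. Neither holds, because some genes were named for their CV and the same individuals recur across genes. The number seen therefore cannot be compared with 5.1. In the summed share of counts of the members, individual 9 had 3.848% in the AH library of cythera at 70%, and the other 3 had 4.271 to 4.298%.

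Among cythera at 70%, individual 10 was apart in 4 members. It had 1553 CPM of HMEL010935 (the other 3: 892.9 to 999.7), 533.3 CPM of HMEL016503g1 (413.8 to 427.5), 39.53 CPM of HMEL008925g1 (28.53 to 30.1) and 271.1 CPM of HMEL015861g1 (2.145 to 15.1). Individual 11 had 2387 CPM of HMEL020809g1, and the other 3 had 1514 to 1600.3 CPM.

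Among rosina at 70%, individual 15 had 2722 CPM of HMEL016109g1, with the other 3 at 113.6 to 446.3 CPM, and individual 16 had 34.77 CPM of HMEL004276g1, with the other 3 at 76.16 to 80.02 CPM. Among cythera at 50%, individual 4 had 118.8 CPM of HMEL016503g1, and the other 3 had 71.25 to 76.97 CPM.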

How the results depend on the processing

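DESeq2 called more members than edgeR in each of the 7 comparisons outside stage: 7 in FPH and 9 in AH between subspecies at 70%, 6 in FPH and 11 in AH at 50%, 3 for the interaction, 16 for wing region at 50% and 2 for sex, against 0, 0, 0, 1, 0, 4 and 0 by edgeR. Over all genes, DESeq2 called 1.26, 1.48, 6.2, 7.18, 0.772, 3.51 and 2.16%, in the same order. The cause was not tested. Without a low-count filter the edgeR count in AH at 50% was 0. Between subspecies, leaving out 1 individual gave 0 to 1 call in FPH and 0 to 1 in AH at 70%, the 1 in each being without individual 13 (0.24 and 0.382% of all genes), and 0 to 3 in AH at 50%. Those were 2 without individual 3 (HMEL009171g1 and HMEL011484g1; 1.12% of members, 0.986% of all genes) and 3 without individual 4 (HMEL030482g1, HMEL033982g1 and HMEL008925g1; 1.66% of members, 2.48% of all genes). For wing region at 50%, leaving out 1 individual gave 2 to 6 calls, and the fit with no replicate block for individual called 0, where the FDR of all 4 genes was 1. The sex comparison in AH in place of FPH libraries called 1 member, HMEL007020g1 (0.242% of all genes).

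The median stage ratio was 4.208 with a pseudocount of 0.1, since a smaller pseudocount raises ratios against low levels, 4.05 with TMM, and 3.909 to 4.009 with 1 individual left out. Of the 200 members, 179 were chosen again with TMM library sizes, 175 with totals that leave out the 10 genes with most counts, 165 with no limit on the wing-region ratio, and 184 to 196 with 1 individual left out. No called value changed sign under any alternative run. At 50%, where the members were low, 24 to 31 of them did not pass the low-count filter and were not tested.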
